A study of Rattus norvegicus with 2 samples.

Results

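The cytochrome P450 genes described here are the 72 gene names, of 26328 on the arrays, that carry the root Cyp followed by a family number, a subfamily letter and a gene number. Cyp19a1 and Cyp11a1 were left out by the same rule. RNA came from the whole hypothalamus of rats of the strain Wistar Kyoto (WKY), killed at 9 weeks of age. One group was a pool of 5 males and the other a pool of 5 females, and the labels name no transgene, engineered allele or drug treatment for either. Each rat gave 100 ng of total RNA to its pool, and 150 ng of each pool was amplified, labelled with the dye Cy3 and hybridised to 1 Agilent array. The comparison asks how the hypothalamus differs between the sexes. With 1 array per pool, every difference below lacks a replicate check, and no p-value is given.

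Cytochrome P450 enzymes hold a haem group that binds oxygen, and they insert an oxygen atom into their substrate. Most sit in the endoplasmic reticulum and receive electrons from P450 oxidoreductase, while a smaller set sits in mitochondria and receives them from ferredoxin. The families differ by substrate: some make or clear cholesterol derivatives, steroids, retinoic acid, vitamin D or fatty acid mediators, and others oxidise drugs. The liver is the richest source of many of them, and in the brain the family is best known for the removal of cholesterol from neurons.

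In what follows "in males" and "in females" mean the value of that pool, and where a pair of levels is given the male pool comes before the female pool. The level of a gene is the log2 processed intensity of its spots minus the log2 of the 75th percentile of the array, so 0 is a bright spot and each step of 1 is a 2-fold step of intensity. Brightness also depends on the probe, so an order of levels is an order of spot brightness and not of transcript abundance. The 75th percentile was 3769 intensity units for the male array and 2943 for the female one, and 84.9% and 84.2% of the spots that were not controls were well above background. Both arrays lay on 1 slide and came from 1 scan. The error given with a difference is the technical SD between repeated spots, which for a mean over several spots is the SD of that mean. It leaves out rats, labelling and hybridisation. Of the repeated spots, 5.32% lay more than 4 robust SD from the median of their probe in 3 bands of slide rows (81 to 180, 401 to 440 and 521 to 532) against 0.430% elsewhere, and 14 measured members had a probe with a single spot in those bands, written below as "in a band". All 12 hypothalamic neuron markers, among them Avp, Oxt and Pomc, were measured in both pools, with a median difference of -0.012.

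Of the 72 members, 45 were well above background in both pools, or 62.5%, against 78.5% of all genes. Their median difference, female minus male, was -0.022, beside 0.00012 over the 20664 genes measured in both pools. Females were higher for 19 members and lower for 26, and 50% of all genes (10326 of 20664) were lower in females. That split is not firm. Scaling on spike-in controls gave 10 higher and 35 lower, with 74.4% of all genes lower, and a normexp background correction gave 31 higher and 14 lower, with 36.6% of all genes lower. None of the 45 members measured in both pools differed by 1.5-fold or more in either direction. Of all genes measured in both pools, 1.56% did so toward females and 0.842% toward males. At 2-fold the shares of all genes were 0.508% and 0.339%, and the count of members was 0 here too. The differences ran from -0.41 to 0.48 with an SD over genes of 0.18, against 0.23 over all genes. Within 1.2-fold lay 38 of the 45 members (84.4%) and 86.9% of all genes.

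The order of brightness was nearly the same in both pools. The 10 brightest members were the same 10 genes in the male and the female pool, a member moved by at most 4 places between them, and the median move was 1 place. Neighbours in the order often lay closer than their technical SD, so single places carry little.

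**Figure D1:**
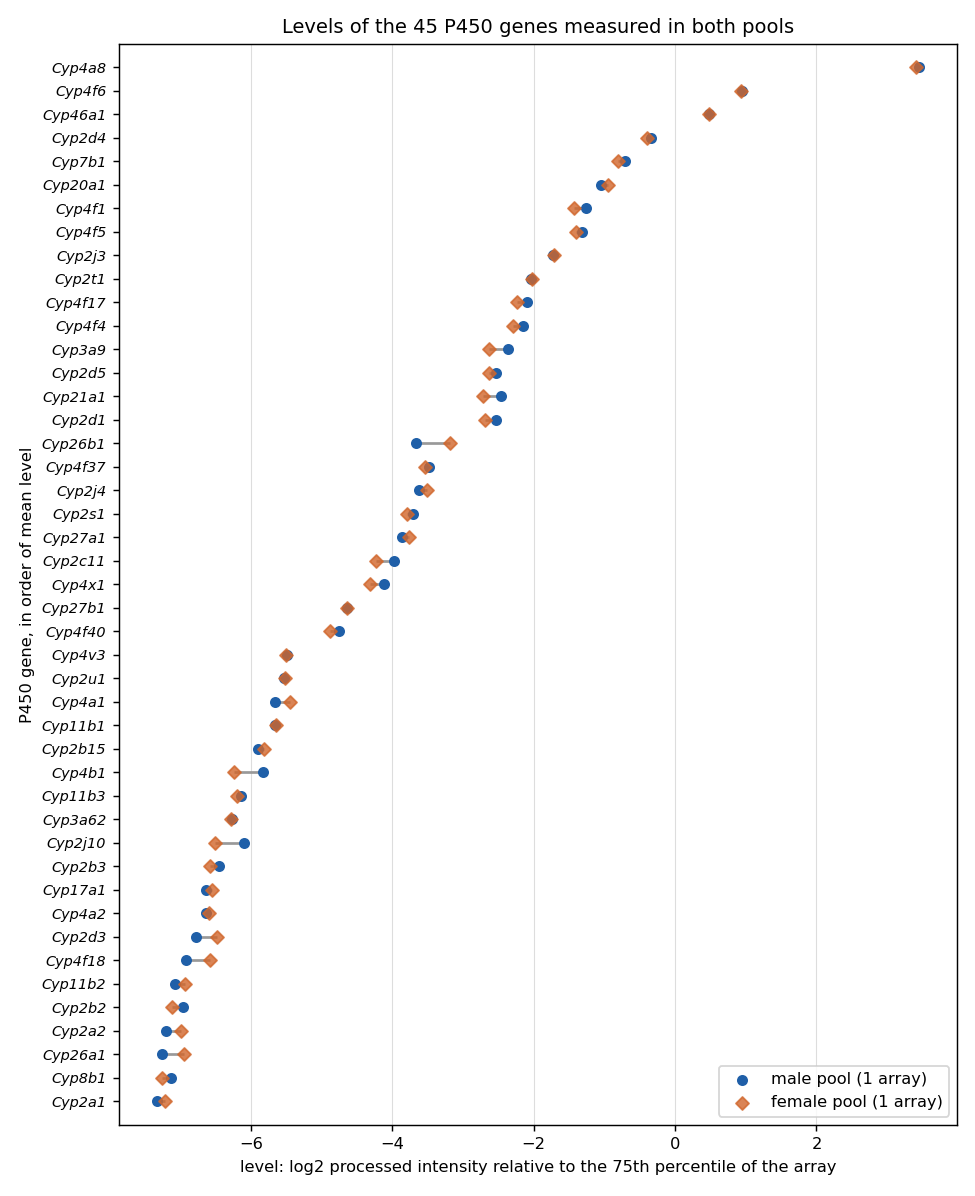
Level of each of the 45 members measured in both pools, as log2 processed intensity relative to the 75th percentile of its array, with 1 point per pool and no error bar because each pool was measured once. The male and female points of a gene lie close together along a range of levels from 3.43 to -7.27, and Cyp26b1, Cyp4b1 and Cyp2j10 have the widest gaps.

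Among the members that act on cholesterol and its hydroxylated forms, the oxysterols, Cyp46a1 and Cyp7b1 were bright, Cyp27a1 and Cyp8b1 were dimmer, and Cyp7a1 and Cyp39a1 were not measured. The 4 measured differences ran from -0.14 to 0.092. Cyp46a1 encodes the neuronal enzyme that hydroxylates cholesterol so that it can leave the brain. Its level was 0.48 in males and 0.48 in females, the third highest of all members, with a difference of 0.0067 ± 0.088 (technical SD, 1 spot, in a band). Cyp7b1, which hydroxylates oxysterols and some neurosteroids, was printed on 10 spots. These lay between -0.81 and -0.64 (median -0.70) in males and between -0.88 and -0.75 (median -0.82) in females. The ranges overlapped, but each of the 10 spots was higher on the male array than the spot at the same place on the female array. The mean difference was -0.10, with an SD of 0.025 over the spots. With 1 array per pool, a difference of this size between the sexes and one between hybridisations cannot be told apart. The first 30 bases of both probes are shown because Cyp46a1 is the brightest and Cyp7b1 the most often spotted measured gene of this group. They lie at chr6:132731264-132731323 on the + strand for Cyp46a1 and chr2:103103702-103103761 on the - strand for Cyp7b1 (build rn4).
Cyp46a1: tggaggtgaaagtcgttatggccaagctgc
Cyp7b1: ttgattgcgatccatccagtttgttttggg

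Cyp27a1, the mitochondrial sterol hydroxylase, had levels of -3.86 in males and -3.77 in females, a difference of 0.092 ± 0.070 on 1 spot. Cyp8b1, which shapes the bile acid pool in liver, lay near the bottom at -7.12 and -7.26, a difference of -0.14 ± 0.21. Cyp7a1, the rate-limiting enzyme of bile acid synthesis, did not stand well above background in a pool, with mean levels of -10.0 and -9.85 over 10 spots. Cyp39a1, which acts on the product of Cyp46a1, was not well above background either, at -10.2 and -10.0. Of the 6 members of this group 4 were measured, 2 of them higher and 2 lower in females.

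All 5 steroid hormone members were measured, 4 of them dim. Cyp21a1, whose enzyme hydroxylates progesterone on the route to corticosteroids, stood out from the other 4 by its brightness. Its level was -2.47 in males and -2.72 in females, a difference of -0.25 ± 0.070 on 1 spot outside the bands, at chr20:4128459-4128518. The male pool stayed higher under the 10 alternatives tried, but most of these cannot shift a value on 1 such spot. The difference was -0.30 under quantile normalization, -0.35 under spike-in scaling and -0.20 under normexp. It was -0.24 with a 75th percentile over probes well above background. Cyp17a1, which makes androgen precursors, had levels of -6.64 and -6.55, a difference of 0.094 ± 0.28 (in a band). Cyp11b1, which completes corticosterone, had -5.65 and -5.64, a difference of 0.015 ± 0.28 (in a band). Cyp11b2, the aldosterone synthase, had -7.07 and -6.93, a difference of 0.14 ± 0.21. Cyp11b3, a rat relative of Cyp11b1, had -6.14 and -6.19 on 2 probes, a difference of -0.049 ± 0.15. These 4 differences were no larger than the technical SD.

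Both retinoic acid members were higher in females, and Cyp26b1, at 0.48, had the largest difference of all 45 in size. It lost that place to Cyp2j10 (-0.51) and Cyp4b1 (-0.51) under spike-in scaling, where it came to 0.38, to the same genes (-0.45 and -0.43) under quantile normalization, where it came to 0.42, and to Cyp4v3 with the brightest probe per gene (0.55) and without single spots in the bands (-0.59). The enzymes Cyp26a1 and Cyp26b1 break retinoic acid down and so limit where its signal reaches. The 10 spots of Cyp26b1 lay between -3.72 and -3.57 (median -3.66) in males and between -3.31 and -3.09 (median -3.16) in females. The ranges did not overlap, and 10 of 10 spots were higher on the female array. The mean difference was 0.48, a 1.39-fold step, with an SD of 0.078 over the spots, and it ran from 0.38 to 0.49 over the 10 alternatives. Cyp26a1 was far dimmer. Its level was -7.25 in males and -6.95 in females, a difference of 0.30 ± 0.28 on 1 spot in a band, about the size of its technical SD. The probe of Cyp26b1 lies at chr4:118735314-118735373 on the - strand, and its first 30 bases are shown because its difference rests on 10 spots whose ranges do not overlap between the pools.
Cyp26b1: ttcattgtggtagcattaatgggtgatgta

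The spots of the 4 measured members on repeated probes show how even a difference between the arrays was over the spots of a probe. The spots of Cyp26b1 separated by array, those of Cyp7b1 shifted by a small and even step, and those of Cyp4f4 by a similar one. For none of the 4 can a difference between the sexes be told apart from one between hybridisations. The spots of Cyp2a2, a steroid hydroxylase of the liver near the lower limit of measurement, did not separate by array. Its 9 spots lay between -8.00 and -6.57 (median -7.19) in males and between -7.50 and -6.66 (median -6.92) in females, with 6 higher and 3 lower in females. Its mean difference of 0.22 had an SD of 0.31 over the spots.

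**Figure D2:**
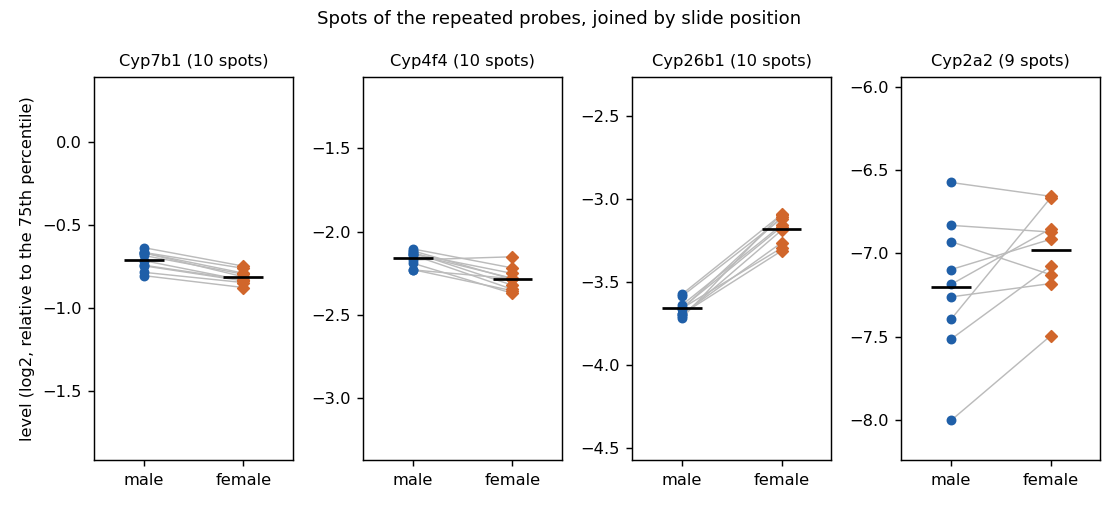
Level of every spot of the 4 measured members on repeated probes, as log2 relative to the 75th percentile, with lines joining the spots at the same slide position on the male and female arrays and bars at the means. All 10 Cyp26b1 spots are higher on the female array, all 10 Cyp7b1 spots and 9 of 10 Cyp4f4 spots are higher on the male array, and the 9 Cyp2a2 spots scatter in both directions.

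Markers of meninges and fibroblasts were higher in females, as was Cyp26b1, in a list chosen with earlier results of these data known. All 12 of that list were measured and higher in females, by 0.54 to 1.92 with a median of 1.03. Of these, 10 were past 1.5-fold, beside 1.56% of all genes measured in both pools. With 1 array per pool, all genes higher in the same pool move together. Their summed level was 2.05 in males and 3.07 in females. The list holds Aldh1a2, which makes retinoic acid, at -5.73 in males and -3.81 in females (1 spot, in a band). In the choroid plexus list 5 of 8 were higher, with a median of 0.12, and the summed level was 0.76 and 1.48. Kcnj13 at 2.22 ± 0.28 and Ttr at 0.98 ± 0.088 led it, each on 1 spot in a band. The other markers of that list ran from -0.17 to 0.20. The median difference was 0.015 over 11 endothelial and mural markers, -0.011 over 10 astrocyte and tanycyte markers, -0.075 over 8 oligodendrocyte and 0.053 over 7 microglia markers. It was -0.47 over 6 red cell and neutrophil markers, all lower in females, and -0.46 over 5 pituitary markers. More cells of a type in the dissected tissue and more RNA per cell cannot be told apart in such samples, and the part of these markers in the difference of Cyp26b1 was not tested.

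The promoter of Cyp26a1 is shown because retinoic acid receptors are known to act there. In RefSeq promoters of assembly GRCr8, which span 250 bases before to 50 bases after the start of a gene, 57 members had a window. The direct repeat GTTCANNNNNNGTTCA, which holds the core site of the receptor on each side of a spacer, was searched on both strands. It was found in 140 of 33469 promoters (0.418%) and in 1 of the 57 members, Cyp26a1. The match covers bases 159 to 174 of the window chr1:244883572-244883871 (+ strand, GRCr8) and starts at -92 from the start site. Capitals mark the match, which reads as the reverse complement of the pattern. A match is no evidence of binding in this tissue. Since the receptors were known to act at Cyp26a1 beforehand, its match is no independent result. Only this pattern was searched, so a member without a match may still hold another form of the site.
Cyp26a1 promoter: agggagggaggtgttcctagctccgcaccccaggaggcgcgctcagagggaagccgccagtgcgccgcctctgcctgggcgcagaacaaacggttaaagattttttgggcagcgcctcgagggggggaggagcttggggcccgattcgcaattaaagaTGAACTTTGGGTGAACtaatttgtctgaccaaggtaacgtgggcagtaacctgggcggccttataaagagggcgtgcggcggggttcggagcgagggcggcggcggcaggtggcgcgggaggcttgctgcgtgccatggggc

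Of the 3 vitamin D members only Cyp27b1, which makes the active hormone, was measured. Its level was -4.64 in males and -4.65 in females, a difference of -0.0087 ± 0.098 on 1 spot. Cyp24a1, which degrades the hormone, lay at -9.91 and -9.81, and Cyp2r1, which makes its precursor, at -8.36 and -9.03. Neither was well above background in a pool.

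The fatty acid omega-hydroxylase subfamilies, which add oxygen at or near the far end of fatty acids and of mediators such as leukotrienes, were measured for 15 of 16 members. The female pool was lower for 11 of the 15 and higher for 4, with a median of -0.058, beside 50% of all genes lower. Under normexp 9 were higher and 6 lower, with 36.6% of all genes lower. Cyp4f6 was the second brightest member at 0.94 in males and 0.93 in females, a difference of -0.016 ± 0.040. Cyp4f1 had -1.25 and -1.43, a difference of -0.17 ± 0.051. Cyp4f5 had -1.32 and -1.41, and Cyp4f17 had -2.10 and -2.24 (in a band). The 10 spots of Cyp4f4 lay between -2.23 and -2.10 (median -2.14) in males and between -2.37 and -2.15 (median -2.28) in females. These ranges overlapped, with 9 of 10 spots higher on the male array and a mean difference of -0.13 (SD 0.069 over the spots). The differences of Cyp4f40, Cyp4f37, Cyp2u1 and Cyp4a2 ran from -0.12 to 0.046.

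These Cyp4f genes are neighbours. Probes of 7 of them lie within chr7:13111345-13609164 (rn4), a stretch of 498 kb. All 7 were measured and lower in females, from -0.17 to -0.016 with a median of -0.12, beside 50% of all genes lower. Under normexp 3 were higher and 4 lower, with 36.6% of all genes lower. The differences of Cyp4f6 and Cyp4f37 were smaller than their technical SD. Cyp4f18, the 8th member of the subfamily, lies on chromosome 16 and was higher in females, at -6.92 and -6.58, a difference of 0.34 ± 0.21. That the remote gene differs in sign rests on 1 dim spot. Of the 5 members with a probe within chr5:135496568-135922305, 4 were measured, and 3 were lower in females. Among them Cyp4b1 had -5.83 in males and -6.24 in females, a difference of -0.41 ± 0.21. Cyp4x1, known from brain, had -4.11 and -4.31, a difference of -0.20 ± 0.098. Cyp4a1 was higher in females by 0.21 ± 0.28, at -5.66 and -5.45 (in a band). Under normexp Cyp4b1 came to 0.036 and Cyp4x1 to -0.017.

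Cyp4a8 was the brightest of all members, but on 1 of its 2 probes only. The bright probe had levels of 3.46 in males and 3.41 in females, a difference of -0.049 ± 0.077 (in a band). The other probe lay at -9.63 and -9.49, not well above background in either pool. Words of 16 bases from the bright probe occurred in 163 of 33469 RefSeq promoters, or 0.487%, whereas those of the other 86 member probes occurred in at most 4, and 65 of these probes shared none. The part of such shared sequence in the brightness of the spot was not tested. The first 30 bases of the dim probe (chr5:135547750-135547809) and bases 8 to 37 of the bright probe (chr5:135546881-135546940) are shown because the top place in the order turns on them, with the word that occurs in 87 promoters in capitals.
Cyp4a8, dim probe: caaaaagctccaataatcttgacagcacaa
Cyp4a8, bright probe: gaaaccaGGAAAGGGAATAACACtcaaaat

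Cyp4v3, a fatty acid hydroxylase gene on chromosome 16, shows how far 2 probes of a gene can part. The probe at chr16:50232113-50232172 had levels of -5.67 in males and -6.25 in females, a difference of -0.59 ± 0.21. The probe at chr16:50232956-50233013 had -5.30 and -4.76, a difference of 0.55 ± 0.16, and lies in a band. Their mean, -0.020, describes neither. Both first stretches of 30 bases are shown in this order.
Cyp4v3, upstream probe: ttcttgcctgtatcctgagggagttttgga
Cyp4v3, downstream probe: gggtgtattttacaagtataagtttggatg

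The arachidonic acid epoxygenase subfamilies Cyp2c and Cyp2j, which form epoxides of arachidonic acid that act on vessels, were thinly measured, with 4 of 12 members. Cyp2j3 had -1.73 in males and -1.71 in females, a difference of 0.017 ± 0.053 on 2 probes, 1 of them in a band. Cyp2j4 had -3.62 and -3.51, a difference of 0.10 ± 0.069 on 2 probes, 1 of them in a band. The dimmer Cyp2j10 had -6.10 and -6.51, the largest difference toward the male pool at -0.41 ± 0.21, though under normexp it came to 0.021. Of the 8 Cyp2c members only Cyp2c11 was measured. Its level was -3.98 in males and -4.24 in females, a difference of -0.25 ± 0.098, and -0.086 under normexp.

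Cyp2c11 is also a textbook gene of sex difference in rat liver, where males have far more. The liver genes of this kind were picked after their values were seen, and the set is not complete. Cyp2c13 and Cyp3a2, also of male liver, and Cyp2c12, of female liver, were not well above background in either pool. Cyp2a2, a male liver gene as well, had the higher mean in the female pool, as given above. The hepatocyte markers Fgb, Ambp, Apoh and Tat were not measured, and the other 6 of 10 had a median difference of 0.012.

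The drug and foreign compound families were measured for 13 of 27 members, 5 higher and 8 lower in females, beside 50% of all genes lower. Their median was -0.059. It came to -0.16 under spike-in scaling (all genes -0.098) and to 0.16 under normexp (all genes 0.048). Cyp2d4, the form of its subfamily best known from rat brain, was the brightest of them at -0.33 in males and -0.39 in females, a difference of -0.059 ± 0.031 on 2 probes. These probes parted, at -0.13 and 0.013, and with the brightest probe per gene the value is -0.13. Cyp3a9, of the subfamily that oxidises many drugs and steroids, had -2.37 and -2.64, a difference of -0.27 ± 0.070 on 1 spot outside the bands. It kept its sign under the 10 alternatives, most of which cannot shift a value on 1 such spot. The difference was -0.31 under quantile normalization, -0.37 under spike-in scaling and -0.28 under normexp. Cyp2t1, whose substrates are poorly known, had -2.03 and -2.02, a difference of 0.018 ± 0.051. Cyp2d3 was near the lower limit at -6.77 and -6.48, a difference of 0.29 ± 0.28 (in a band). Among the dimmer members Cyp2b2 had 2 probes that parted, at 0.061 (in a band) and -0.36. The gene differences of Cyp2s1, Cyp3a62, Cyp2b2, Cyp2b3, Cyp2b15 and Cyp2a1 ran from -0.15 to 0.12. The probes of Cyp2a1 and Cyp2a2 share a run of 19 bases.

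Cyp2d1 and Cyp2d5 cannot be read as separate measurements. Their probes share a run of 55 bases out of 60, and their levels were -2.53 and -2.69 for Cyp2d1 and -2.53 and -2.63 for Cyp2d5 in the male and female pools. The last 30 bases of the probes at chr7:120769703-120769762 and chr7:120760436-120760495 are shown, with capitals for the bases past the shared run.
Cyp2d1: ctgagccacgtttaataaaccagtcttTTG
Cyp2d5: gagccacgtttaataaaccagtcttGAGGC

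Cyp20a1, a conserved P450 with no settled substrate, fell in no group above. It had -1.05 in males and -0.94 in females, a difference of 0.11 ± 0.051 on 1 spot, and 0.0094 under spike-in scaling.

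**Figure D3:**
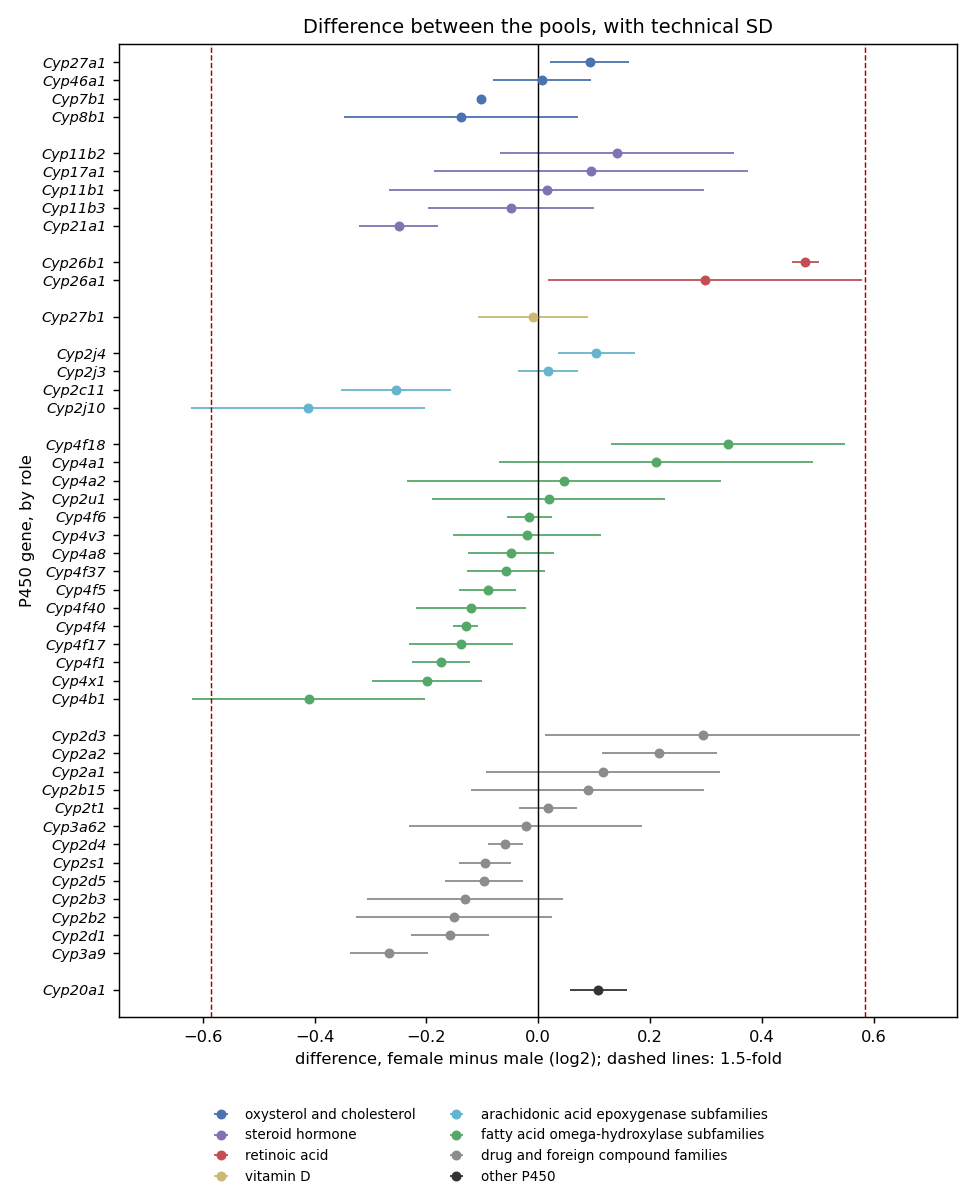
Difference of each measured member, female minus male on the log2 scale, grouped by role, with bars of 1 technical SD of repeated spots that leave out rats, labelling and hybridisation. All 45 points lie inside the dashed lines at 1.5-fold, and Cyp26b1 has a narrow bar at 0.48 while the dim members have wide bars.

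Of the remaining 27 members, 26 were not well above background in either pool and 1 was so in the male pool only, a state that 1.97% of all genes shared. This was Cyp1a2, which oxidises caffeine and is induced through the aryl hydrocarbon receptor. Its level was -5.87 in males and -7.72 in females, where it was not well above background. The 2 levels lay 3.60-fold apart, with a technical SD of 0.28. That fold is no lower bound. It sets the male level against the probe's own female level, which lay above the lowest female level that counted as measured. The fold rests on 1 spot at slide row 440, the last row of a band. Its probe lies at chr8:61439236-61439295, and the first 30 bases are shown because this is the only member measured in 1 pool.
Cyp1a2: ttttcctttctttttaaataacagcttttt

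Members below the measurable range included genes best known from liver. Among them were Cyp1a1, the main target of the aryl hydrocarbon receptor, at -9.86 and -9.65 in the male and female pools, and Cyp2e1, which oxidises ethanol, at -9.92 and -9.73, both on repeated probes. Cyp1b1 had -9.75 in males and -7.74 in females on 1 spot, neither above background, so no fold is given. Cyp2c23, an epoxygenase of the kidney, had mean levels of -9.69 and -9.57, and Cyp3a18, of the same subfamily as Cyp3a9, had -9.18 and -9.18, both on 9 spots. By role, 13 of the 26 belonged to the drug families, 8 to the epoxygenases, 2 to the oxysterol group, 2 to the vitamin D group and 1, Cyp4a3, to the omega-hydroxylases. The 33 member probes that were not measured had a median of 38.3% of the bases G and C, against 45.0% for the 54 measured probes, and the part of this in the levels was not tested.

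None of the electron donors, regulators and epoxide hydrolases that work with P450 enzymes was past 1.5-fold. All 11 genes of the electron donor list on the arrays were measured, and the list also counts the P450 partners Pgrmc1 and Pgrmc2. Their median was 0.040, and 8 were higher and 3 lower in females, beside 50% of all genes lower. This split was not counted under spike-in scaling, where 74.4% of all genes were lower. The largest differences were 0.18 ± 0.044 for Cyb5a, which encodes cytochrome b5, at 0.39 and 0.57, and 0.12 ± 0.12 for Cyb5r2, a cytochrome b5 reductase gene, at -3.21 and -3.10 (in a band). Of 16 transcription regulators 15 were measured, with a median of 0.036. The vitamin D receptor gene Vdr had -6.05 and -5.67, a difference of 0.39 ± 0.21, and the pregnane X receptor gene Nr1i2 had -4.84 and -4.51, a difference of 0.33 ± 0.098. The 4 epoxide hydrolases, which open the epoxides made by epoxygenases, had a median of -0.092, with -0.22 ± 0.070 for Ephx2 (-2.37 and -2.58) and -0.16 ± 0.21 for Ephx3 (-6.33 and -6.49).

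Of the 3 P450 genes under other names, 1 was past 1.5-fold, toward females, beside 1.56% of all genes measured in both pools. Ptgis, the prostacyclin synthase of vessels and fibroblasts, had -5.37 in males and -4.77 in females, a difference of 0.60 ± 0.098 or 1.52-fold on 1 spot. That lies just past the cut, and its value under the alternative settings is not given. Cyp51, the sterol demethylase of cholesterol synthesis, had 1.22 and 0.997 on 10 spots, a difference of -0.22 ± 0.013, and Tbxas1, the thromboxane synthase, differed by -0.055. The meningeal and fibroblast markers given above were higher in females too, and their part in the difference of Ptgis was not tested.

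**Figure D4:**
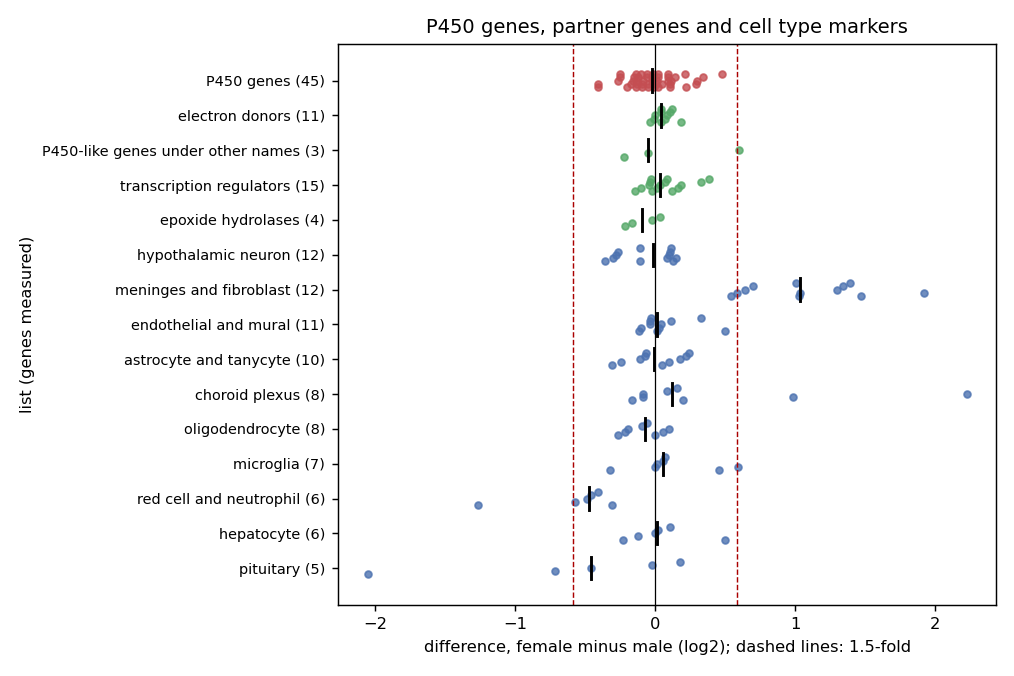
Difference, female minus male on the log2 scale, of each measured gene in the P450 group, the partner lists and the cell type marker lists, with 1 point per gene, a bar at each median and dashed lines at 1.5-fold. The P450 genes stay between -0.41 and 0.48, whereas the 12 meningeal and fibroblast markers lie between 0.54 and 1.92.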

How the data were processed

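The deposited scanner files hold an intensity for every spot, which Agilent Feature Extraction made by subtracting background and removing a spatial trend, per the file headers. The headers name version 10.7.3.1 and build rn4, while the submitters' processing notes name version 9.1. The deposited value table holds the same signal relative to the 75th percentile, and was used as an alternative. Outlier spots and controls were left out, levels were averaged over spots and then over probes, and probes counted as measured if on each array more than 50% of their spots stood well above background. The technical SD came from 1310 probes with 5 or more spots, in 6 level bins and separately in the slide bands. Probes with 5 or more spots took the SD over their own spots, a choice made after the data were seen. Bands are row blocks of 20 in which over 2% of repeated spots lay over 4 robust SD from their probe median, a threshold set after the data were seen. Positions are probe positions from the deposited files. Their place in exons or untranslated regions is not given. By accession, 79 of the 87 member probes matched the RefSeq table of GRCr8, 78 with the same symbol. The other probes keep the name in the files. Another 16 names described as cytochrome P450 lie outside the rule for members.

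Members and lists were chosen with earlier results of these data known. Values of both pools are given for the 12 brightest measured members, the 6 largest differences per direction, members measured in 1 pool, members on repeated probes, the sterol, steroid, retinoic acid and vitamin D members, and the 2 largest differences of each partner list. Further genes named with values were chosen after their values were seen. The calculation was tested on simulated data. Normexp came from limma 3.58.1 (R 4.3.3) with an offset of 50, its parameters fitted without spots flagged as outliers for signal or background. All else used Python 3.11.15, numpy 2.4.6 and pandas 2.3.3. No test was made.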

Additional observations from a re-analysis of the deposited data

How the results depend on the processing

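Of 45 measured members, 33 rest on 1 spot, and the technical SD of a dim spot was 0.21 outside and 0.28 inside the slide bands. The median difference of -0.022 came to -0.12 under spike-in scaling (all genes -0.098) and turned sign to 0.071 under normexp (all genes 0.048). Without the filter on dim probes 72 members had a value, with a median of 0.018 (all genes 0.020). Of these, 4 were past 1.5-fold toward females, 4 toward males and 3 were 2-fold apart, all 3 counts being 0 with the filter. The share of all genes past these folds without the filter is not given, so the counts cannot be set against it. Without single spots in the slide bands 36 members were left, and 1, Cyp4v3 at -0.59, passed 1.5-fold toward males. Quantile normalization, the deposited value table, a stricter filter, the brightest probe, kept outliers and a 75th percentile over bright probes left these counts at 0. Among members measured in both pools none was past 1.5-fold, so none could reverse. The sign of 12 members changed under normexp, 9 under spike-in scaling and 4 under quantile normalization. Spike-in scaling lowers all differences by the same amount, so its 9 were members slightly higher in females. For normexp and quantile normalization the cause was not tested. No paired analysis was possible because each sex has 1 pooled array and the labels give no replicate numbers.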
